A study of Mus musculus with 9 samples.

Results

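The 10 genes described here encode the hormones of the pancreatic islet and proteins of the granules that store them. The 7 hormone genes were Ins1 and Ins2 (insulins), Gcg (proglucagon), Sst (somatostatin), Iapp (islet amyloid polypeptide), Ppy (pancreatic polypeptide) and Pyy (peptide YY). The 3 granule genes were Chga and Chgb (chromogranins A and B) and Pcsk1 (prohormone convertase 1). They were taken by symbol, each as the RefSeq entry with the most normalised counts over the Aire pair, and made up 10 of 23003 symbols matched in the pair tables. All 10 were found in all tables, and all 10 passed the filter on low counts in both pairs.

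Medullary thymic epithelial cells (mTEC) express genes that are otherwise restricted to peripheral tissues, which exposes developing T cells to self antigens. In the mature cells, which carry high MHC class II (mTEChi), the nuclear protein Aire promotes transcription of many such genes, whereas most immature cells with low MHC class II (mTEClo) lack it. Insulin is a classic example of an Aire-dependent self antigen in the thymus. In the islet, prohormones are packed with chromogranins into dense granules and cleaved there by convertases. Chromogranins and convertases are also found in neuroendocrine cells of other organs.

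The 9 RNA-seq libraries came from sorted thymic mTEC of B6 mice, with 1 library in each of 9 groups, and each was made from pooled thymi. The Aire pair held mTEChi of WT mice and of Aire-/- mice, the maturation pair held WT mTEChi and mTEClo of the same mice (Exp2), and a 0 h WT mTEChi library served as reference for WT mTEChi kept with 1 µM actinomycin D, a transcription inhibitor, for 1.5, 3, 6 and 12 h. The 5 untreated libraries shared a TruSeq kit that does not mark strand, and the 4 treated libraries were made with a SMARTer and Nextera kit. The mice were 4 weeks old.

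Totals over RefSeq entries were 74161592 to 195444567 reads in the untreated libraries and 1746825 to 21124165 in the treated ones. No sample is named in the header of the Aire pair's table. The column read as WT is the one on top in the ratio that the study's code takes as WT over Aire-KO. Aire RNA was not lower under the Aire-KO label. It had 29178 normalised counts in WT, and the library labelled Aire-KO had 87371 (2.99-fold higher, 95% interval 2.95 to 3.04). A count over a whole entry does not show whether a transcript can give the protein, so these values alone cannot decide on the label. Every direction in that pair rests on this assignment of the columns. Of 26761 entries tested in the pair, 5655 were at least 3-fold higher in the column read as WT and 544 at least 3-fold lower. Sst and Ins2, whose CPM (counts scaled to a common library total) is given for each library further on, were in that column near their level in mTEChi Exp2 and at 0 h, and at or near 0 in the other column. Both are members and had the largest folds of the members in this pair, so they give no separate support for the assignment. The summed CPM of the 13 mTEC markers with an entry in all tables was 23102 to 25476 in the untreated WT mTEChi libraries, 30048 in the library labelled Aire-KO and 14779 in mTEClo, and none of them was at 0. The maturation marker Cd80 was 13.0-fold and Aire 29.3-fold higher in mTEChi Exp2 than in mTEClo. Summed CPM of 10 dendritic cell and macrophage markers was 667 in WT of the Aire pair, 552 in mTEChi Exp2, 258 at 0 h, 352 in the library labelled Aire-KO and 69.4 in mTEClo. Most of each sum was Lyz2, with 574, 464, 172, 336 and 50.7 CPM in the same order. Each other marker of this list was lower in the library labelled Aire-KO than in every untreated WT mTEChi library. In the Aire pair 7 of these 10 were at least 3-fold higher in WT, and for Cd209a the other library held 0 reads. Summed CPM of 7 fibroblast markers was 92.6 to 211 in the untreated WT mTEChi libraries, 178 in the library labelled Aire-KO and 939 in mTEClo. In bulk libraries, fewer cells of a type and less RNA per cell cannot be told apart.

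Ins1 and Ins2 are paralogs, so their transcripts were compared before their reads were read as separate values. Their coding sequences were identical at 302 of 327 aligned bases (92.4%). The 77 bases at the end of the coding sequence, which hold the codons of the insulin A chain, are given with the bases that differ in capitals. Both run 5′ to 3′ on the coding strand and lie within 1 exon in mm9, at chr19:52339364-52339440 (plus strand) for Ins1 and chr7:149864618-149864694 (minus strand) for Ins2.
Ins1: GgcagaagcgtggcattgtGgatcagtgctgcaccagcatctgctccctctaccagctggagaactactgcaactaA
Ins2: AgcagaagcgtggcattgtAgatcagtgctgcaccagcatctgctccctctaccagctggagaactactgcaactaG
The run of 56 bases without a difference was the longest in both coding sequences, and a read has 50 bases. Of 967 windows of 50 bases in the Ins1 transcript, 7 were found exactly in Ins2 (0.724%), and 114 with up to 2 mismatches (11.8%). For the 503 windows of Ins2 the same counts were 7 (1.39%) and 114 (22.7%). The reads of both insulins are therefore not fully separable at the end of the coding sequence. No window of any of the other 8 transcripts was found in a transcript of another gene.

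Promoter sequences from RefSeq (GRCm38.p6, 250 bases before to 50 after the start site) were matched for 9 of the 10 members, the exception being Ins2. The cAMP response element, searched as TGACGTCA, which reads the same on both strands, was found in the promoters of Sst, Chgb and Pcsk1. It was in 588 of 32817 distinct mouse promoters of the same length (1.79%). The following stretches show it in capitals, 5′ to 3′ on the strand of the gene, because it is an element that a hormone gene shares with granule genes. They lie at chr16:23890849-23890928 (minus strand), chr2:132781534-132781613 (plus strand) and chr13:75089743-75089822 (plus strand).
Sst: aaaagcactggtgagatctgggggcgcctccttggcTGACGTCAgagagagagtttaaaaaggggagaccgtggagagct
Chgb: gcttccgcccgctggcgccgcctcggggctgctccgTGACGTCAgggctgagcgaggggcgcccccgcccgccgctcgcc
Pcsk1: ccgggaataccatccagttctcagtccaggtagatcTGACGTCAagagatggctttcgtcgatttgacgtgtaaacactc
The element began 48 bases before the start site in Sst, 72 in Chgb and 78 in Pcsk1. The shorter motif TGACG, searched on both strands and contained in the full element, was also found in Chga, 44 bases before the start site, and in 20.8% of all promoters. Its surroundings at chr12:102554861-102554937 (plus strand) are shown with the motif in capitals.
Chga: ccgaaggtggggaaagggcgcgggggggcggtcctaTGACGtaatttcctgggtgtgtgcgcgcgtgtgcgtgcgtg
None of the other 5 hormone promoters in the table held TGACG in this window. The TATA box, searched as TATAAA on both strands, was found in Gcg, Ppy and Chga, and in 13.6% of all promoters. Its matches began 72 and 24 bases before the start site in Gcg and 31 in Ppy. In Chga the match lay after the start site, at bases 6 to 11. The insulin E-box, searched as GCCATCTG on both strands, was found in Ins1 alone among the 9, and in 1.33% of all promoters. These matches are descriptions of letters in a window.

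The first question was how much of each gene the untreated WT mTEChi libraries held. Because a longer transcript gives more reads, levels of different genes were compared as CPM per kilobase of exon. In the 3 untreated WT mTEChi libraries the order of the medians was Iapp (64.8 CPM per kilobase, range 59.4 to 112), Pyy (56.6, 55.2 to 60.2), Sst (36.7, 30.9 to 42.5), Chga (35.4, 31.4 to 44.3), Ppy (29.0, 26.4 to 30.7), Ins2 (16.2, 14.9 to 19.4), Gcg (15.1, 14.1 to 16.4), Chgb (6.32, 5.28 to 11.1), Ins1 (1.70, 1.12 to 1.98) and Pcsk1 (1.39, 1.38 to 2.74). The ranges of Iapp and Pyy overlapped, as did those of Sst and Chga, of Ins2 and Gcg, and of Ins1 and Pcsk1, so these neighbours were not separated by the spread between libraries. Ins2 lay above Ins1 in all 3 libraries. Within a gene, the highest of the 3 WT libraries exceeded the lowest by 1.09 times for Pyy to 2.11 times for Chgb.

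**Figure D1:**
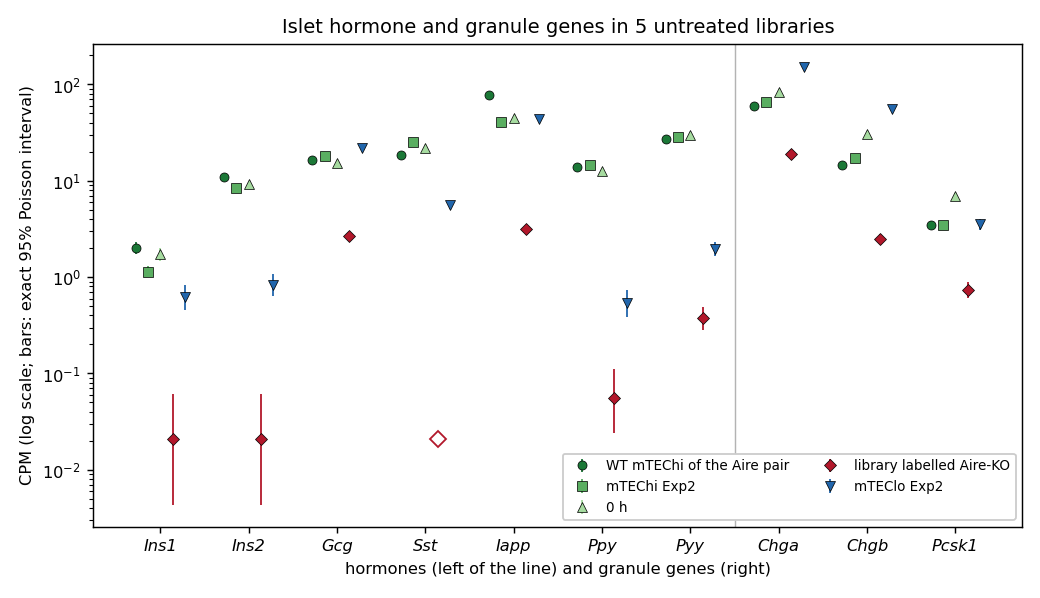
CPM (log axis) of the 10 members in the 5 untreated libraries, with hormones to the left of the line, granule genes to the right, and bars for the exact 95% Poisson interval; the open diamond stands at the 3-read floor of the library labelled Aire-KO, where Sst had 0 reads. All 10 members lie lowest in the library labelled Aire-KO, and the mTEClo triangle lies below the WT symbols for 5 hormones but above them for Gcg, Chga and Chgb.

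The second question was how the members differed between WT mTEChi and the library labelled Aire-KO. All 10 were lower in the library labelled Aire-KO than in each of the 3 untreated WT mTEChi libraries, which 45.4% of all entries with a read were. In the Aire pair, 9 of the 10 were at least 3-fold higher in WT, against 21.1% of all entries tested, and none was at least 3-fold lower. The median fold of the members was 41.6, with 3 reads in place of 0 for Sst, and that of all entries tested was 1.02. The folds of the 7 hormones were 5.24 or more and those of the 3 granule genes 2.69 to 4.89, but the lowest hormone, Gcg, was not separated from Chgb and Pcsk1, whose intervals overlapped its own. With 1 library in each group these folds are descriptions. Their intervals are exact conditional ones that cover counting error only, with each read taken as independent. The paper describes paired-end reads of WT and Aire-KO mTEChi, and of mTEChi and mTEClo, that were trimmed and joined into single-end ones. Both ends of a fragment can then count as separate reads, so the intervals of both pairs may be too narrow.

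Somatostatin, which inhibits the release of other hormones, had 18.5 CPM in WT of the Aire pair, 25.4 in mTEChi Exp2 and 22.0 at 0 h. The library labelled Aire-KO had 0 reads of 143001134. WT of the pair had 1931 reads. The fold of Sst was 753 with the floor of 3 reads in place of 0, and its exact 95% lower limit was 611. All 3 untreated WT mTEChi libraries lay above the library labelled Aire-KO, as they did for 45.4% of all entries with a read.

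Ins2, which among mouse insulin genes is the one mainly reported in thymus, stood at 11.0, 8.40 and 9.17 CPM in the same 3 WT libraries and at 0.0210 in the library labelled Aire-KO. This was 1144 reads against 3 in the pair, a 446-fold difference with an interval of 152 to 2165. Ins1 stood at 2.01, 1.14 and 1.74 CPM in WT and also at 0.0210 CPM in the library labelled Aire-KO. Its 210 reads against 3 gave an 81.8-fold difference (27.6 to 400.0). The 3 reads that each insulin kept bound the folds poorly, and the ratio of Ins1 to Ins2 in the library labelled Aire-KO could not be read from them.

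Pancreatic polypeptide and peptide YY belong to the neuropeptide Y family and act on gut and appetite. Ppy was at 13.9, 14.8 and 12.7 CPM in WT and at 0.0559 CPM in the library labelled Aire-KO, with 1451 and 8 reads in the pair (212-fold, 107 to 492). Pyy was at 27.5, 28.2 and 29.997 CPM and at 0.378, with 2867 and 54 reads (62.1-fold, 47.4 to 82.8). Both were close to even between the 3 WT libraries and low in the other. Their genes lie next to each other on the minus strand of chromosome 11 in mm9 (Ppy 101961244 to 101962633, Pyy 101967990 to 101969146), with 5356 bases between them.

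Iapp, a peptide released together with insulin, had 77.6 CPM in WT of the pair but 41.2 and 45.0 in mTEChi Exp2 and at 0 h. It stood at 3.13 in the library labelled Aire-KO, and the pair gave 21.2-fold (19.2 to 23.3). With the mean of the 3 WT libraries in CPM instead, the ratio was 17.5. Gcg, whose product gives glucagon in the islet and GLP-1 in the gut, was at 16.5, 17.9 and 15.4 CPM and at 2.69 in the library labelled Aire-KO (5.24-fold, 4.69 to 5.87). Gcg thus had the smallest fold of the 7 hormones, and its interval did not overlap those of the other 6.

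Among the granule genes, Chga was at 59.2, 66.5 and 83.3 CPM in WT, and the library labelled Aire-KO had 18.8. The Chga fold of 2.69 (2.57 to 2.81) was the only one under the 3-fold limit, and with equal totals in place of the authors' size factors it was 3.15. Equal totals multiplied every fold of this pair by 1.17. Chgb was at 14.4, 17.3 and 30.4 CPM and at 2.52 (4.89-fold, 4.35 to 5.50). Pcsk1, which cleaves prohormones, was at 3.48, 3.49 and 6.90 CPM and at 0.734 (4.04-fold, 3.24 to 5.07). For both, the 0 h library lay highest, and against the mean of the 3 WT libraries in CPM the folds were 8.22 for Chgb and 6.30 for Pcsk1, above the 6.19 of Gcg.

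The granule genes took 31.6% of the members' summed CPM in WT of the Aire pair, 38.9% in mTEChi Exp2, 47.0% at 0 h and 77.8% in the library labelled Aire-KO. The summed CPM of the 7 hormones was 136 to 167 in the WT libraries and 6.29 in the library labelled Aire-KO, and that of the 3 granule genes was 77.1 to 121 and 22.0.

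A model across libraries used the 3 untreated WT mTEChi libraries against the library labelled Aire-KO (edgeR quasi-likelihood test, Benjamini-Hochberg adjustment over 23916 entries). The 1 library on the other side is assumed to vary like the WT ones, and nothing in the labels says that the 3 came from separate cell preparations, so the p-values measure the spread between these libraries. The test called 8 of the 10 members higher in WT, against 8.64% of all entries, and none lower. All 7 hormones were called, with adjusted p of 0.00878 for Ins2, Sst, Ppy and Pyy, 0.0142 for Ins1, 0.0224 for Iapp and 0.0434 for Gcg. Chgb was called (log2 difference 2.73 ± 0.64 SE, adjusted p = 0.0424). Pcsk1 (2.34 ± 0.67, adjusted p = 0.078) and Chga (1.60 ± 0.51, adjusted p = 0.106) did not pass. DESeq2 called all 10 higher, as did edgeR without the 0 h library, where 14.8% and 12.2% of all entries were called higher. Without mTEChi Exp2 6 members were called (7.47% of all entries), and without WT of the Aire pair 7 (9.99%).

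**Figure D2:**
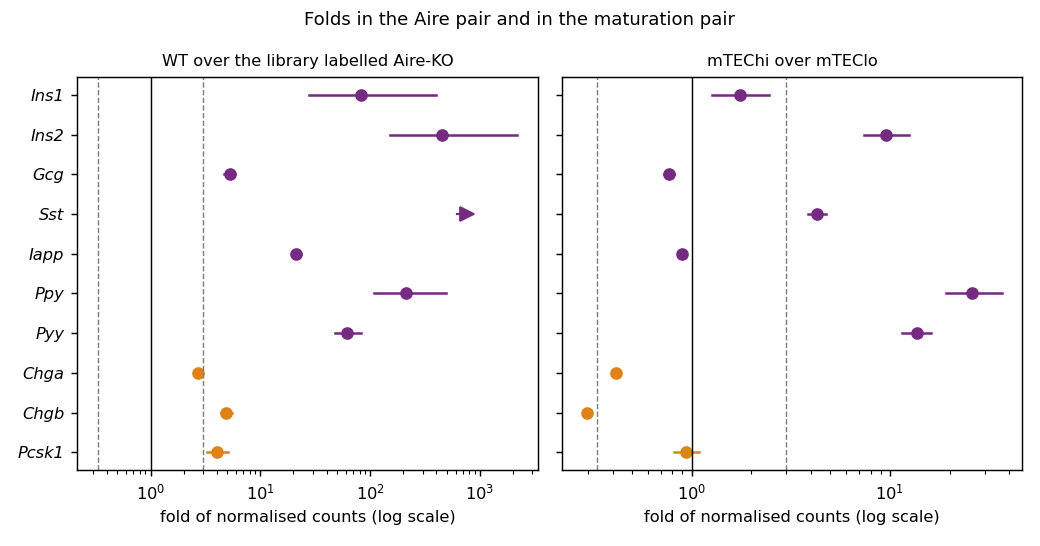
Fold of normalised counts (log axis) of each member with its exact 95% interval, in the Aire pair (left) and in the maturation pair (right), with hormones in purple and granule genes in orange; dashed lines mark 3-fold in either direction, and the arrowhead is the lower bound for Sst. On the left all points lie to the right of 1, and on the right Ppy, Pyy, Ins2 and Sst lie beyond 3-fold while Chgb lies beyond 3-fold in the other direction.

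The third question was how the members stood in the immature cells. In the maturation pair, 4 of the 10 were at least 3-fold higher in mTEChi, against 11.8% of all entries tested, and 1 was at least 3-fold higher in mTEClo, against 12.8%. The 4 were the hormones Ppy, Pyy, Ins2 and Sst, and the 1 was Chgb. The median fold was 4.28 for the 7 hormones, 0.414 for the 3 granule genes and 1.01 for all entries tested. Over the 10 members, Spearman's rho between the folds of both pairs, which share no library, was 0.758, given as a description of 10 genes.

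Ppy differed most, from 14.8 CPM in mTEChi Exp2 to 0.539 in mTEClo (26.0-fold, 19.1 to 36.5). Pyy went from 28.2 to 1.97 CPM (13.6-fold, 11.6 to 16.2). Ins2 went from 8.40 to 0.836 CPM (9.56-fold, 7.42 to 12.5), and Ins1 from 1.14 to 0.620 CPM (1.75-fold, 1.27 to 2.46). The intervals of both insulins did not overlap, and against the mean of the 3 WT libraries in CPM the fold of Ins1 was 2.63. Sst went from 25.4 to 5.66 CPM (4.28-fold, 3.87 to 4.74).

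Gcg and Iapp were slightly higher in mTEClo. Gcg had 17.9 CPM in mTEChi Exp2 and 22.1 in mTEClo, a fold of 0.772 (0.727 to 0.819), and Iapp 41.2 and 43.8 CPM, a fold of 0.897 (0.861 to 0.935). Pcsk1 had 3.49 and 3.53 CPM, and its interval spanned 1 (0.814 to 1.09). Both chromogranins were higher in mTEClo, Chga with 66.5 and 153 CPM (2.42-fold, 2.36 to 2.48) and Chgb with 17.3 and 55.6 CPM (3.38-fold, 3.23 to 3.54). Against the mean of the 3 WT libraries in CPM, Chgb in mTEChi stood at 0.372 of mTEClo, short of the 3-fold limit, and Iapp turned direction at 1.25. mTEClo therefore held 73.8% of the members' summed CPM in the granule genes, and its most abundant members per kilobase were Chga at 81.3 and Iapp at 63.0 CPM per kilobase.

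Against all 3 untreated WT mTEChi libraries, 5 members (Ins1, Ins2, Sst, Ppy and Pyy) were higher in each than in mTEClo, against 36.0% of entries with a read, and 3 (Gcg, Chga and Chgb) were lower in each, against 28.0%. The values of Iapp and Pcsk1 in mTEClo lay within the WT range. The edgeR test of the 3 libraries against mTEClo called 3 members higher in WT mTEChi, against 1.92% of 24687 entries, and 0 lower, against 1.45%. The 3 were Ppy (log2 difference 4.53 ± 0.66, adjusted p = 0.0371), Pyy (3.71 ± 0.59, adjusted p = 0.0371) and Ins2 (3.37 ± 0.64, adjusted p = 0.0405). Of the others, Sst had 1.81 ± 0.54 (adjusted p = 0.114), Chga -1.29 ± 0.44 (adjusted p = 0.15) and Chgb -1.60 ± 0.50 (adjusted p = 0.123). At an unadjusted p under 0.05, 6 members passed by edgeR, against 4947 of 24687 entries, and 6 by DESeq2, against 5230 of 25333. DESeq2 called 4 higher (7.62% of all entries) and 0 lower (4.02%). The calls depended on the libraries used. Without mTEChi Exp2 edgeR called 0 members and 0 of all 24473 entries. Without the 0 h library it called 4 members higher (Ppy, Pyy, Ins2 and Sst), against 7.46% of all entries, and 2 lower (Chga and Chgb), against 4.92%.

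Marker transcripts of some other cell types moved with this comparison. Over all entries tested, 11.8% were at least 3-fold higher in mTEChi and 12.8% in mTEClo. Of 7 fibroblast markers, 6 were at least 3-fold higher in mTEClo, as were 3 of 5 endothelial markers. Of 10 dendritic cell and macrophage markers, 8 were at least 3-fold higher in mTEChi. Of 8 thymocyte markers, 1 was at least 3-fold higher in mTEChi and 1 in mTEClo. Of 4 B cell markers, 1 was at least 3-fold higher in mTEChi and 0 in mTEClo. Cells with CD45 or Ly51 on their surface were gated out in the sort. The CD45 gene Ptprc stood at 0.481 in mTEChi relative to mTEClo, and the Ly51 gene Enpep at 4.99. None of these marker genes was at 0 in mTEChi Exp2 or mTEClo. Their part in the differences of the members was not tested.

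The hormones and granule genes were then set beside lists of related genes, chosen by function. In the Aire pair 6 of 22 other granule and prohormone processing genes were at least 3-fold higher in WT, close to the 21.1% of all entries tested, and the median fold was 2.22. The 6 were Scg2, Pcsk2, Pcsk1n, Slc18a2, Sytl4 and the beta cell zinc transporter gene Slc30a8, named after their values were seen. Scg2, a secretogranin gene, had 1382 and 41 reads (39.4-fold), and Pcsk2, the convertase that works alongside Pcsk1, had 577 and 52 (13.0-fold). The edgeR test called 5 of the 22 higher in WT, those 6 without Slc18a2, against 8.64% of all entries. The most abundant of the list had folds of 2.59 for Resp18, 2.40 for Scg5, 1.16 for Cadps and 0.765 for Pam. In the maturation pair 6 of the 22 were at least 3-fold higher in mTEChi, against 11.8% of all entries, among them Cadps, which primes granules for release (9.31-fold). Scg2 (3.28-fold) and Cpe (3.59-fold) were higher in mTEClo, and 2 of 22 was no larger a share than the 12.8% of all entries. Scg2 was thus, like Chgb, higher in WT in the Aire pair and higher in mTEClo in the maturation pair.

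Islet transcription factors gave 11 of 18 tested at least 3-fold higher in WT in the Aire pair and a median fold of 3.42. The share over all entries tested was 21.1%. Neurog3, which specifies endocrine precursors, had 356 reads in WT against 0, at least 139-fold against the floor, and Nkx2-2 had 61 and 0, at least 23.8-fold. These 2 were the ones called by the edgeR test among 17 (adjusted p = 0.00958 and 0.0227), a share near the 8.64% of all entries. They were named after this was seen. Among the most abundant factors, the folds were 0.446 for Insm1, 0.850 for Isl1 and 0.249 for Mafa, an activator of insulin transcription. Pdx1, another activator of the insulin genes, had 82 and 8 reads (12.0-fold) and was chosen after its value was seen. In the maturation pair Insm1 (7.65-fold) and Neurog3 (3.44-fold) were higher in mTEChi and St18 in mTEClo (3.56-fold).

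Among 11 tested genes of glucose sensing and the beta cell surface, 5 were at least 3-fold higher in WT (median 2.14). The share over all entries tested was 21.1%. The edgeR test called 1, Ucn3, a peptide of mature beta cells (298 and 30 reads, 11.6-fold, adjusted p = 0.0347). A share of 1 in 11 was near the 8.64% of all entries, and Ucn3 was named after its value was seen. The most abundant members of that list were near or under 1, with 0.706 for Abcc8 and 1.17 for Kcnj11, which together encode the ATP-sensitive potassium channel, 0.999 for Slc2a1 and 0.474 for Trpm2. Abcc8 was 3.66-fold higher in mTEChi than in mTEClo.

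Peptides related to the hormones gave 9 of 17 at least 3-fold higher in WT in the Aire pair (median 5.42). In the maturation pair 13 of 18 were at least 3-fold higher in mTEChi (median 6.67). The shares over all entries tested were 21.1% and 11.8%. The edgeR test called 6 of 17 and 7 of 18 higher in WT mTEChi, against 8.64% and 1.92% of all entries. Gip, an incretin of the gut, had 1624 and 10 reads in the Aire pair and was 20.2-fold higher in mTEChi. The calcitonin genes Calca and Calcb, whose products are related to Iapp, were at 1.63 and 0.440 in the Aire pair but 20.2-fold and 13.3-fold higher in mTEChi, and the edgeR test called both higher in WT mTEChi than in mTEClo (adjusted p = 0.0405 for both). Adm stood at 0.556 and 1.08 in the same pairs, and Igf1 at 5.42 and 7.28. Iapp itself was at 21.2 and 0.897.

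Among receptors of these hormones, 10 of 15 stood at least 3-fold higher in WT in the Aire pair (median 5.66). The share over all entries tested was 21.1%. The edgeR test called 6 of 16 higher in WT, against 8.64% of all entries. Between WT mTEChi and mTEClo it called 0 of 16, against 1.92% of all entries higher and 1.45% lower. The glucagon receptor gene Gcgr had 288 and 7 reads (48.1-fold), chosen after its value was seen, while the 4 most abundant stood at 0.614 (Insr), 0.584 (Igf1r), 0.429 (Sstr3) and 0.703 (Ramp3). Genes of the exocrine pancreas, which makes digestive enzymes, gave 11 of 12 at least 3-fold higher in WT (median 22.3). In the maturation pair 7 of 12 were at least 3-fold higher in mTEChi (median 3.61), against 11.8% of all entries tested. The trypsinogen genes Prss1 and Prss2 were at 121-fold and 12.4-fold in the Aire pair, Ctrb1 at 20.8-fold and Cel at 25.7-fold. The edgeR test called 8 of 11 exocrine genes in the first comparison and 3 of 11 in the second, against 8.64% and 1.92% of all entries. Of 15 mTEC markers, none was at least 3-fold different in the Aire pair.

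**Figure D3:**
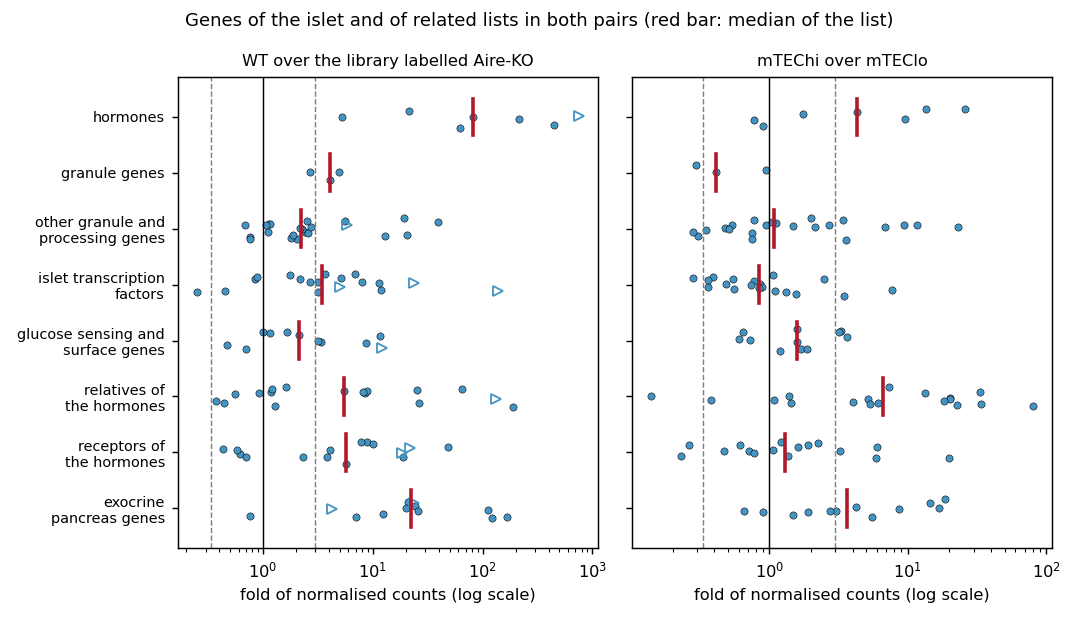
Fold of normalised counts (log axis) of each tested gene of 8 lists in the Aire pair (left) and the maturation pair (right). Open arrowheads are folds with 3 reads in place of 0 in the other library, red bars are list medians and dashed lines mark 3-fold. The hormones have the highest median on the left (81.8), followed by the exocrine pancreas genes (22.3), and the granule genes have the lowest median on the right (0.414).

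The genes whose levels over the 5 untreated libraries were most like each member were found by the smallest distance between centred log2 values among 16317 other entries. Ins2 was nearest to the homeobox gene Hoxb13 (distance 0.224, r = 0.999 over 5 libraries), Ppy to Gip (0.287, r = 0.999) and then Nts and Alb, and Pyy to Il31 and Rln3. Ins1 was nearest to Fbp2 (0.267) and Iapp to Them5 (0.385). Gcg was nearest to Tmem255b (0.160), Chga to Slc39a8 (0.197), Chgb to Scarf1 (0.367) and Pcsk1 to Dysf (0.204). Sst had no close neighbour, the nearest being Mcpt4 at 1.36. No member was among the 3 nearest of another. Among the members, the smallest distances were between Gcg and Chga (0.927) and between Ppy and Pyy (0.968). These are descriptions over 5 libraries of 1 kit.

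Genes next to the members in mm9 were examined for the same fold. Of 18 measured neighbours that are not members, 8 were at least 3-fold higher in WT in the Aire pair, against 21.1% of all entries, and the median fold of the 18 was 1.71. At Ins2 on chromosome 7, Igf2 (11839 bases away) was at 8.80 and Th, the tyrosine hydroxylase gene (193241 bases away), at 83.1, with 711 and 10 reads. On either side of Ppy and Pyy, Mpp2 was at 13.7 and Nags at 13.6. The neighbours of Chga (Golga5 and Itpk1), Chgb (Gpcpd1 and Trmt6) and Pcsk1 (Cast and Ell2) were at 0.526 to 1.31.

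The last question was how the members' share of the RNA moved once transcription was blocked. Only the 4 treated libraries share a kit, so changes were taken against 1.5 h. Against 0 h, kit and treatment cannot be told apart. CPM is a share of the RNA that remains, so a ratio above 1 is a larger share and not a larger amount. Over 23850 entries the median ratio to 1.5 h was 0.958 after 3 h, 0.778 after 6 h and 0.842 after 12 h. The members' median was 0.873, 1.75 and 1.19.

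Ins2 had 13.8, 8.46, 34.0 and 39.5 CPM at 1.5, 3, 6 and 12 h, and Ins1 3.12, 1.94, 8.50 and 15.5. Both insulins were lowest at 3 h and highest at 12 h, where Ins2 was at 2.86 times its level at 1.5 h (2.17 to 3.73) and Ins1 at 4.95 times (3.04 to 7.85). Ppy had 15.6, 13.9, 66.1 and 34.3 CPM, Pyy 36.0, 27.2, 72.6 and 37.8, and Iapp 41.6, 34.3, 72.6 and 37.8. These 3 peaked at 6 h, with ratios of 4.23, 2.02 and 1.74. Iapp and Pyy had equal read counts at 6 h (820) and at 12 h (66).

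Sst and Gcg took the other course at 6 h. Sst had 26.8, 37.9, 12.6 and 30.9 CPM and was at 0.468 of its 1.5 h level at 6 h (0.387 to 0.564). Gcg had 19.4, 16.6, 12.4 and 37.2 CPM and was at 0.640 (0.525 to 0.777). Chga had 103, 119, 180 and 127 CPM and Chgb 26.7, 36.1, 37.4 and 30.3, and both were above their 1.5 h level at 3 h and 6 h.

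Pcsk1 had 134 reads at 1.5 h, 160 after 3 h, 0 after 6 h and 6 after 12 h. Its share at 3 h would have given 130 reads at the depth of the 6 h library, and the upper limit of its ratio to 1.5 h there was 0.0522. Such gaps were frequent in that library, since of 3350 entries with 100 to 200 reads at 3 h, 549 (16.4%) had 0 reads at 6 h, and 459 of these had a read again at 12 h. Of all shared entries, 5.17% were at 0 at 1.5 h and 31.5% at 6 h.

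**Figure D4:**
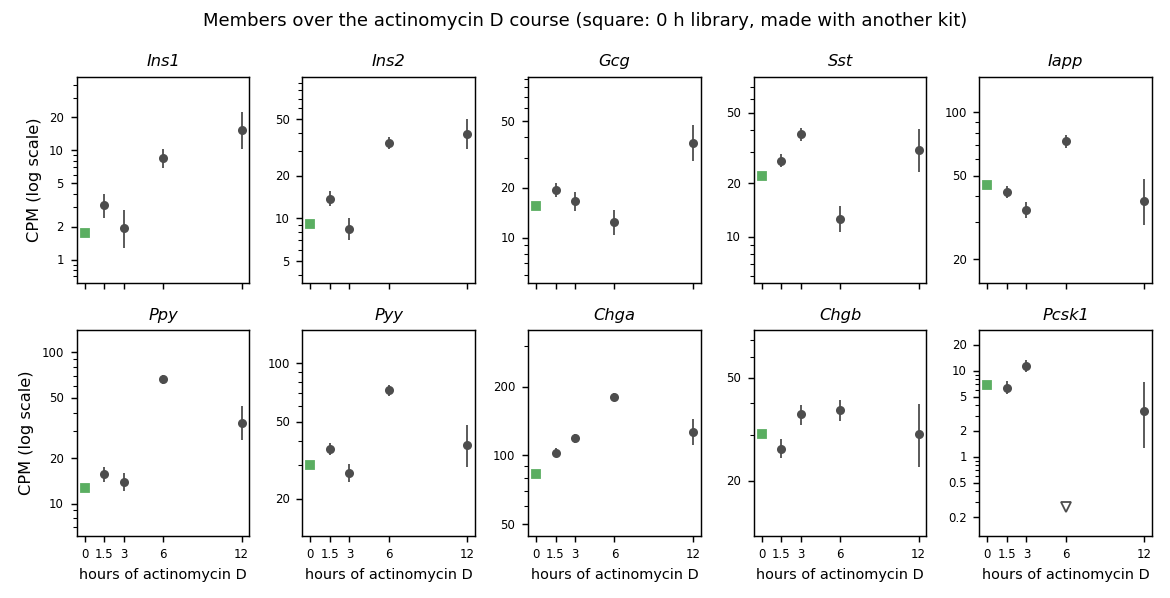
CPM (log axis) of each member over hours of actinomycin D, with bars for the exact 95% Poisson interval, a green square for the 0 h library made with another kit, and an open triangle at the 3-read floor for Pcsk1 at 6 h. Ppy, Pyy and Iapp are highest at 6 h, Sst and Gcg lowest there among the treated libraries, and both insulins highest at 12 h.

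A slope over hours in the 4 treated libraries was tested with edgeR over 20558 entries. It called 0 of 10 members and 0% of all entries, with 1884 entries and 1 member, Ins2, at an unadjusted p under 0.05. DESeq2 gave no adjusted p for 7 of the members, so that only Iapp, Pyy and Chga could be called, and none of the 3 was. It called 5.04% of the 4958 entries with an adjusted p as rising and 2.88% as falling. At an unadjusted p under 0.05 were 2 members, Ins1 and Ins2, against 1904 of 24172 entries. Without the 6 h library edgeR called Ins1 and Ins2 (adjusted p = 0.0408 and 0.00835), both with a rising share, against 3.47% of all entries rising and 5.67% falling. Without the 12 h library, which had 1746825 reads, it called Ppy (adjusted p = 0.0161), also rising, against 0.405% of all entries rising and 2.45% falling.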

How the data were processed

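Per the labels and the study's methods, reads were mapped to mm9 with Bowtie 1.0.0 and counted per RefSeq entry with bedtools. The authors deposited both pairs as counts divided by DESeq size factors (a normalised signal, with the exon length of each entry) and the actinomycin D libraries as raw counts. Whole reads were recovered from the normalised values by their step (100% within 0.1 of a whole number) and scaled to CPM. Symbols came from RefSeq (98.1% of 30794 entries matched). Depth sets an upper limit on the precision. Intervals and floors (3 reads) cover counting error at most, since they take each read as independent.

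Folds used the size factors, with exact 95% conditional intervals, over entries whose normalised counts in a pair came to 10 or more. Tests used edgeR 4.0.16 (TMM, quasi-likelihood, Benjamini-Hochberg, 0.05) on the recovered and raw counts of 25401 entries shared by all tables, with its default filter, and DESeq2 1.42.0 as alternative, in R 4.3.3. The edgeR test was checked on simulated counts and the fold intervals were checked too, while DESeq2 was not checked in this way. Alternatives were equal totals, other filters, thresholds and entries, and leaving out each library. Coordinates and transcripts came from gencode vM1 on mm9, promoters from RefSeq on GRCm38.p6.

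The genes named were all members, up to 4 genes of each other list with the highest mean CPM over the 5 untreated libraries, the 3 entries most like each member (log2 of CPM + 0.05, entries with a mean CPM of at least 0.5) and Aire, of which 1 gene is not reported here. The members and lists were chosen with earlier results of these data known. No paired test was made, and no deposited column was left out.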

Additional observations from a re-analysis of the deposited data

How the results depend on the processing

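No paired analysis was possible because each group held 1 library. Of 39 alternative counts of members, 35 stayed within 1.5 times the reported count. The 4 others came from leaving out 1 library. Against mTEClo, 3 members were called, and 0 to 6 when 1 WT mTEChi library was left out, with 0 without mTEChi Exp2 (0 of all 24473 entries) and 6 without the 0 h library (7.46% of all entries higher and 4.92% lower). For the slope over hours, 0 members were called, and 0 to 2 when 1 treated library was left out, with 2 without the 6 h library (3.47% of all entries rising) and 1 without the 12 h library (0.405%). DESeq2, run with its default filter on mean counts, gave 7 members an unadjusted but no adjusted p for the slope. Of 24172 entries tested, 4958 had an adjusted p. Against the library labelled Aire-KO, the count of 8 ranged from 6 to 10. Among single log2 differences between WT mTEChi and mTEClo, 2 that had not passed the test changed sign. Iapp ranged from -0.22 (without WT of the Aire pair) to 0.34 when 1 library was left out, and Pcsk1 from -0.13 (without the 0 h library) to 0.34. Depth limits Ins1, Ins2 and Ppy in the library labelled Aire-KO (3, 3 and 8 reads) and all members at 12 h (6 to 222 reads).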
